A study of Mus musculus with 21 samples.

Results

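Toll-like receptors are a family of pattern recognition receptors, and 10 of their genes were followed here by symbol: Tlr1, Tlr2, Tlr3, Tlr4, Tlr5, Tlr6, Tlr7, Tlr8, Tlr9 and Tlr13. All 10 were listed among the 54532 gene symbols of both deposited tables, and all 10 passed the filter on low values in both. RNA was sequenced from mouse brain primary microglia, to follow the effect of Trem1 deletion during aging and in 5XFAD mice, a strain with transgenes of familial Alzheimer's disease. The aging table held aged Trem1-/-, aged wild type (WT), young Trem1-/- and young WT libraries, and the 5XFAD table held adult 5XFAD Trem1+/-, adult 5XFAD and adult WT libraries, with n = 3 per group. Ages were given as words only, and neither the isolation of the cells, the promoter of the transgenes nor the deleted Trem1 exons were given in the sources used here. Whether each library was a different animal was not stated, and p-values measure only the spread between these samples.

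Toll-like receptors sense microbial and endogenous molecules through a leucine-rich ectodomain and signal through an intracellular TIR domain. Most signal through the adaptor MyD88 to NF-kB and interferon regulatory factors, Tlr3 through TRIF, and Tlr4 through both. Receptors of the cell surface (Tlr1, Tlr2, Tlr4, Tlr5, Tlr6) bind lipoproteins, lipopolysaccharide or flagellin, and receptors of endosomes (Tlr3, Tlr7, Tlr8, Tlr9, Tlr13) bind nucleic acids. In the brain, microglia are the cells best known for expressing them, and Tlr2, Tlr4 and the co-receptor Cd14 are known as receptors that respond to fibrillar amyloid beta.

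Values are normalized counts, which are reads per gene divided by a size factor of the library. In the aging table a library had between 8600878 and 19411434 gene reads, and in the other table between 9264999 and 18698707, so that 3 reads corresponded to 2.06 to 4.51 and 2.26 to 4.36 normalized counts. The 10 homeostatic microglial markers were present in every library, with sums from 314080.3 to 490441 (aging) and from 338062 to 462305 (5XFAD). Trem1 itself had 124, 124 and 244 normalized counts in the aged libraries labelled Trem1-/-, against 269, 188 and 237 in aged WT. It had 89.4, 99.8 and 89.5 in the young libraries labelled Trem1-/-, against 25.2, 7.65 and 8.74 in young WT. The young libraries thus went against the direction of their labels at the whole-gene count, and every direction by genotype below rests on the labels. In the 5XFAD table Trem1 averaged 27.2 ± 10.2 in 5XFAD Trem1+/-, 27.5 ± 12.2 in 5XFAD and 31 ± 31.4 in WT (SD, n = 3 each).

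The regions upstream of Tlr8 and Tlr2 are shown because these were the receptor genes called higher in any comparison. Each window runs from 250 bases before to 50 bases after the start of the gene, from RefSeq on GRCm38.p6, minus strand, at chrX:167264280-167264579 for Tlr8 and chr3:83841559-83841858 for Tlr2, written 5′ to 3′ in lower case because none of the motifs searched occurred.
Tlr8: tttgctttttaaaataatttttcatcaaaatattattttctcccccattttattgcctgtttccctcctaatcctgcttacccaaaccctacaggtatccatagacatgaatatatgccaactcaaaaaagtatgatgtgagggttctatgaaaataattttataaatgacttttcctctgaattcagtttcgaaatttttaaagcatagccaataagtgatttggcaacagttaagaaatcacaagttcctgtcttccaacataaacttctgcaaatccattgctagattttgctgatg
Tlr2: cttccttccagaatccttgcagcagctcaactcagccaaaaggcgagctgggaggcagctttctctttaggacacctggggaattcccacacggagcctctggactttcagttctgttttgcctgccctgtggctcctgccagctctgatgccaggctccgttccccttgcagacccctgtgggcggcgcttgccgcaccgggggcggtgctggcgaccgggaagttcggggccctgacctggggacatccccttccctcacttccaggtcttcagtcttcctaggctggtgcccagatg
Bases G and C made up 32.3% of the Tlr8 window and 62% of the Tlr2 window, against a median of 52.7% over 32851 promoter windows. On both strands, 3 motifs were searched, each only in the form given. These were PU.1 as GAGGAANT (in 7.44% of all windows), the interferon-stimulated response element as GAAANNGAAA (3.44%) and NF-kB as GGGANNTTCC (1.47%). Windows were found for 8 of the 10 genes. The PU.1 letters occurred in windows of Tlr1 and Tlr9, the interferon element in one of Tlr6 and the NF-kB letters in that of Tlr3. None of the 3 forms occurred in the windows of Tlr2, Tlr5, Tlr8 and Tlr13. These matches are letters in a window only. Other forms of the NF-kB site and of the other motifs were not searched, so a window without a match may hold them.

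Tlr1 and Tlr6 lie next to each other on chromosome 5, and their transcripts share sequence, so the counting of reads between them is uncertain. In GENCODE M21, 15.4% of the distinct stretches of 50 bases in Tlr1 transcripts also occur in another gene, most of them in Tlr6, and 12.3% of those of Tlr6 occur elsewhere. Identical runs of 50 bases or more numbered 6, and the longest, of 229 bases, lay within the Tlr1 coding sequence at chr5:64925537-64925765 on the minus strand of GRCm38.
Tlr1 and Tlr6: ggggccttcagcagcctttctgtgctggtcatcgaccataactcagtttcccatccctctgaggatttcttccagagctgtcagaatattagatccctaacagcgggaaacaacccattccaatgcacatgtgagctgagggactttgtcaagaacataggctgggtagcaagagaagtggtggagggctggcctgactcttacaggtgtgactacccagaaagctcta
Of the exon bases of Tlr3, 7.32% overlap Gm45542 on the opposite strand, and the counting was not stated to use strand. The transcripts of Tlr2, Tlr5, Tlr7, Tlr8, Tlr9 and Tlr13 shared no stretch of this length with another gene. Tlr7 (chrX:167304929-167330558) and Tlr8 (chrX:167242696-167264329) are neighbours on the minus strand of the X chromosome, with Tlr13 (chrX:106143204-106160493) further away on the plus strand.

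Per kilobase of exon, the order of the 10 genes was the same in both tables: Tlr7, Tlr13, Tlr9, Tlr2, Tlr4, Tlr3, Tlr1, Tlr6, Tlr5 and Tlr8. Tlr7, the sensor of single-stranded RNA, stood first, with a level of 1138 ± 153 normalized counts per kb over the 12 aging libraries and 1127 ± 162 over the 9 libraries of the 5XFAD table. Tlr13, which in the mouse recognizes bacterial ribosomal RNA, had 847 ± 78.2 and 885 ± 107, and Tlr9, the receptor for CpG DNA, had 796 ± 128 and 708 ± 112. These 3 nucleic acid receptors led the family in level, and the ranges of neighbours in the order overlapped.

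Tlr2, the partner of Tlr1 and Tlr6 in binding lipoproteins, was the first surface receptor, at 498 ± 70 and 606 ± 148 normalized counts per kb. Tlr4, the lipopolysaccharide receptor, had 308 ± 39.5 and 331 ± 75.3. Tlr3, the receptor for double-stranded RNA, had 231 ± 28.8 and 249 ± 36.5. Tlr1 (144 ± 22.1 and 174 ± 39.7) was followed by Tlr6 (129 ± 28.9 and 126 ± 23.3) and by the flagellin receptor Tlr5 (82.7 ± 11.3 and 86 ± 27.7). Tlr8, an endosomal receptor that in humans senses RNA degradation products, stood last, at 38.2 ± 26.1 and 12.9 ± 8.17. Between neighbours, the ranges over all libraries did not overlap for Tlr2 and Tlr4 in the aging table, nor for Tlr5 and Tlr8 in the 5XFAD table. All other neighbouring ranges overlapped. With coding length in place of exon length the order of the means was the same, but not the overlaps. In the aging table Tlr2 and Tlr4 then had 639 and 632, with overlapping ranges and Tlr2 higher in 5 of 12 libraries. Tlr1 and Tlr6 had 201 and 198, with Tlr1 higher in 6 of 12. Ranges no longer overlapped for Tlr3 and Tlr1 in both tables, Tlr5 and Tlr8 in the aging table, and Tlr13 and Tlr9 in the 5XFAD table.

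**Figure D1:**
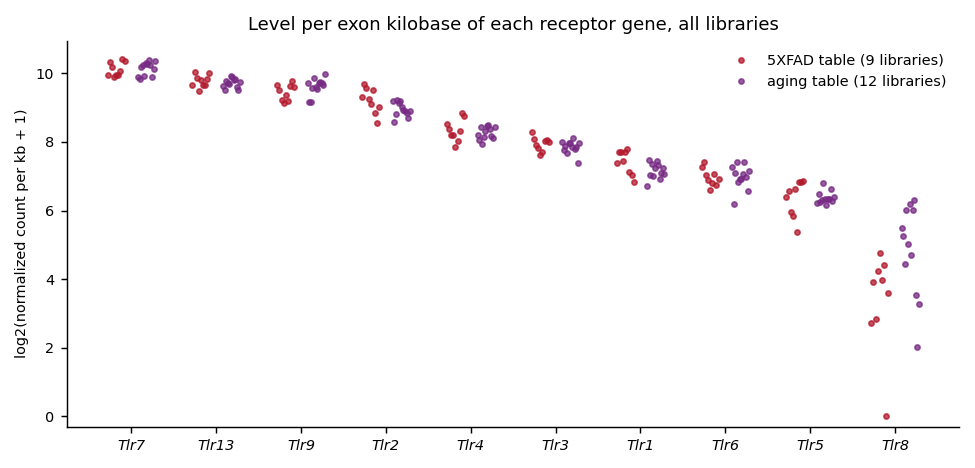
Level of each receptor gene as log2(normalized count per exon kilobase + 1), 1 point per library, for the 9 libraries of the 5XFAD table and the 12 of the aging table. Tlr7 is highest and Tlr8 lowest in both, and Tlr8 also has the widest spread, down to 1 library listed at 0.

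Replicates of a group were close for most of the receptors. The within-group SD on the log2(normalized count + 1) scale lay between 0.11 (Tlr13) and 0.39 (Tlr6) for the genes other than Tlr8 in the aging table, where the median of all tested genes was 0.38. In the 5XFAD table it lay between 0.13 (Tlr3) and 0.42 (Tlr5), against a median of 0.47. Tlr8 was the most variable receptor, with SDs of 0.77 (aging) and 2.0 (5XFAD).

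Tlr8 was the 1 receptor gene whose level differed past the threshold in the aging table. It had 158, 134 and 73.7 normalized counts in aged Trem1-/-, 229, 113 and 258 in aged WT, 89.4, 229 and 281 in young Trem1-/-, and 38.2, 10.9 and 31.4 in young WT. All 3 young WT libraries, with 41, 10 and 36 reads, lay below all 9 others, while the other 3 groups overlapped. Of all genes tested, 15.1% had every aged WT library above every young WT library, and for young and aged Trem1-/- over young WT the shares were 11.3% and 12.9%. Differences are means of log2(normalized count + 1) in the first group minus the second, with the SE of limma, and a gene is called at a Benjamini-Hochberg adjusted p under 0.05 over all 16086 genes tested.

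Tlr8 was higher in aged WT than in young WT by 2.93 ± 0.50 on the log2 scale (adjusted p = 4.9e-04). It was higher in young Trem1-/- than in young WT by 2.86 ± 0.50 (adjusted p = 0.00179), and in aged Trem1-/- than in young WT by 2.24 ± 0.50 (adjusted p = 0.00726). These 3 contrasts share the young WT libraries. Without the mean-variance trend and robust steps of limma, the contrasts of young and aged Trem1-/- with young WT had adjusted p of 0.0698 and 0.0856. Each of the 3 kept its call with any 1 library left out, at differences of 2.41 to 3.30, 2.34 to 3.36 and 1.71 to 2.57. In the authors' deposited table, given as young WT over aged Trem1-/-, the log2 fold change of Tlr8 was -2.18 with an adjusted p of 7.3e-04.

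Between aged Trem1-/- and aged WT the difference of Tlr8 was -0.69 ± 0.50 (95% interval -1.73 to 0.34, adjusted p = 0.692). Between aged and young Trem1-/- it was -0.62 ± 0.50 (-1.66 to 0.42, adjusted p = 0.601). The age difference within Trem1-/- minus that within WT was -3.56 ± 0.71 (limma adjusted p = 0.00785). That call was lost without the trend and robust steps (adjusted p = 0.129). Trem1 was also called in that test, at -3.40 ± 0.64 (adjusted p = 0.00429).

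The summed marker genes of monocytes, neutrophils and border macrophages were, as Tlr8 was, lowest in young WT. The 8 monocyte markers summed to 10405 to 12641 normalized counts in aged Trem1-/-, 8879 to 18552 in aged WT, 10132 to 19237 in young Trem1-/- and 1231 to 2519.8 in young WT. The young WT libraries were again below all others. Of these 8 genes, 7 were called higher in aged WT than in young WT (median log2 difference 3.17), 5 in young Trem1-/- than in young WT (2.87) and 4 in aged Trem1-/- than in young WT (2.63). The 12 neutrophil markers summed to 63543 to 146891 in aged Trem1-/-, 77159.8 to 136119 in aged WT, 35945 to 70782 in young Trem1-/- and 16697 to 25049.5 in young WT. Of these 12, 11, 4 and 10 were called higher in the same 3 contrasts. In aged against young Trem1-/- all 12 differences were above 0 (median 1.17), where Tlr8 was at -0.62. The 7 border macrophage markers summed to 2513 to 2819 in aged Trem1-/-, 2574 to 4448 in aged WT, 2105 to 4784 in young Trem1-/- and 769 to 1300.5 in young WT, which was again below every other library. Of these 7, 1 was called higher in each of the same 3 contrasts (medians 0.41, 0.40 and 0.75), and 2, 3 and 0 had a difference below 0. This list shares a gene with the monocyte list. In the test of the age difference between genotypes, 4 of the 8 monocyte markers and 2 of the 12 neutrophil markers were called lower. No marker of these 3 lists was at 0 in all libraries of a group, and the part of these cells in the Tlr8 result was not tested. In bulk RNA, fewer cells of a type and less RNA per cell cannot be told apart.

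**Figure D2:**
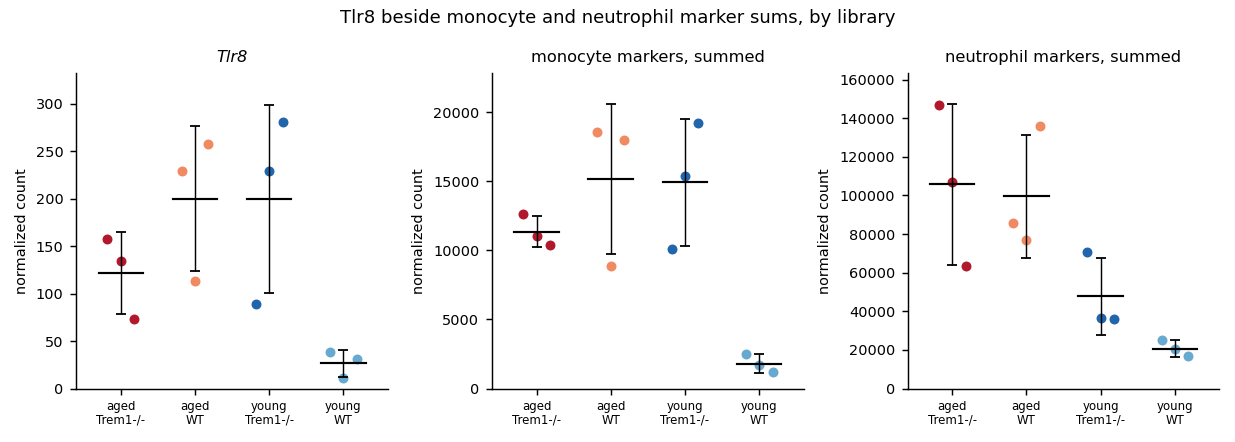
Normalized counts of Tlr8, of 8 summed monocyte markers and of 12 summed neutrophil markers in the aging table, by group; points are libraries, lines are means and bars are SD (n = 3). The 3 young WT libraries are the lowest in all 3 panels.

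Among the other 9 receptors, aging in WT changed none past the threshold. With Tlr8, 1 of 10 was called in aged WT against young WT, where 8.67% of all genes tested were called. Tlr2 had 1798, 1692 and 1765 normalized counts in aged WT, against 1377, 1251 and 1443 in young WT. All aged WT libraries were above all young WT libraries for Tlr2 and Tlr8, 2 of 10 receptors, against 15.1% of all genes in that direction. The difference of Tlr2 was 0.37 ± 0.13 (adjusted p = 0.0962). The remaining 8 receptors differed by -0.10 to 0.15, and the 95% intervals of the 9 other than Tlr8 together spanned -0.39 to 0.67.

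In young Trem1-/- against young WT, 1 of 10 receptors was called, Tlr8, against 2.58% of all genes. Tlr13 had 4072, 3868 and 3910.2 normalized counts in young Trem1-/-, against 3357, 3126 and 3699 in young WT. Its groups did not overlap, at a difference of 0.22 ± 0.11 (adjusted p = 0.406). With Tlr8, 2 of 10 receptors were apart in that direction, against 11.3% of all genes. The other 8 differed by -0.15 to 0.22, and their groups overlapped.

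In aged Trem1-/- against aged WT, no receptor was called and no gene of the 16086 (0%) was called by limma. At an unadjusted p under 0.05, limma, edgeR and DESeq2 each gave 2 of the 10 receptors (9.6% of all genes in limma), and neither edgeR nor DESeq2 called one after adjustment. Those 2 in limma were Tlr2, at -0.33 ± 0.13 (adjusted p = 0.437), and Tlr9, at -0.34 ± 0.14 (adjusted p = 0.431). Of the 10 receptors, 8 had a difference below 0, with a median of -0.17 against -0.02 over all genes. No receptor had groups that did not overlap, against 12.2% of all genes.

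In aged against young Trem1-/-, limma, edgeR and DESeq2 called 0 of the 10 receptors, where limma called 1.71% of all genes, and 2 receptors (Tlr7 and Tlr9) had an unadjusted p under 0.05 in each tool (15.2% of all genes in limma). Tlr7 had 3884, 3735 and 4786 normalized counts in aged Trem1-/-, against 5008, 5470.0 and 4960.5 in young Trem1-/-. Tlr13 had 3439, 3127 and 3801, against 4072, 3868 and 3910.2. All aged libraries lay below all young ones for both, as for 9.87% of all genes, at differences of -0.32 ± 0.13 (adjusted p = 0.207) for Tlr7 and -0.20 ± 0.11 (adjusted p = 0.386) for Tlr13. Tlr9 had 2904, 1980 and 1990.1 normalized counts in aged Trem1-/-, against 2599.9, 2946 and 2997 in young Trem1-/-. One aged library was as high as the young ones, and the difference was -0.33 ± 0.14 (adjusted p = 0.236).

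In aged Trem1-/- against young WT, Tlr8 was again the 1 receptor called, against 6.67% of all genes. Tlr9 came next, at -0.44 ± 0.14 (adjusted p = 0.0545). With 1 library left out in turn it ran from -0.63 to -0.35, at adjusted p of 0.00724 to 0.228. The value of -0.63 and the adjusted p of 0.00724 were those without aged Trem1-/- replicate 1, the high library. The other 8 differed by -0.16 to 0.14. In the test of the age difference between genotypes, 1 receptor (Tlr8) was called against 2.54% of all genes, and the 10 values ran from -3.56 to -0.01 with a median of -0.29. Tlr2 (-0.46 ± 0.19, adjusted p = 0.233) and Tlr13 (-0.35 ± 0.15, adjusted p = 0.244) were the other receptors with an unadjusted p under 0.05, as for 15.3% of all genes. The 10 homeostatic microglial markers summed to 314080.3 to 349897 in aged Trem1-/-, 337606 to 372722 in aged WT, 419664 to 436207 in young Trem1-/- and 435301 to 490441 in young WT. Of these 10, 8 were called lower in aged WT and 9 in aged Trem1-/-, each against young WT, and 3 in aged against young Trem1-/-. The 5 choroid plexus markers summed to 31086 to 41065 in aged Trem1-/-, 27246 to 44975 in aged WT, 2433 to 14914 in young Trem1-/- and 6096 to 15050.3 in young WT. The part of either in the receptor values was not tested.

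**Figure D3:**
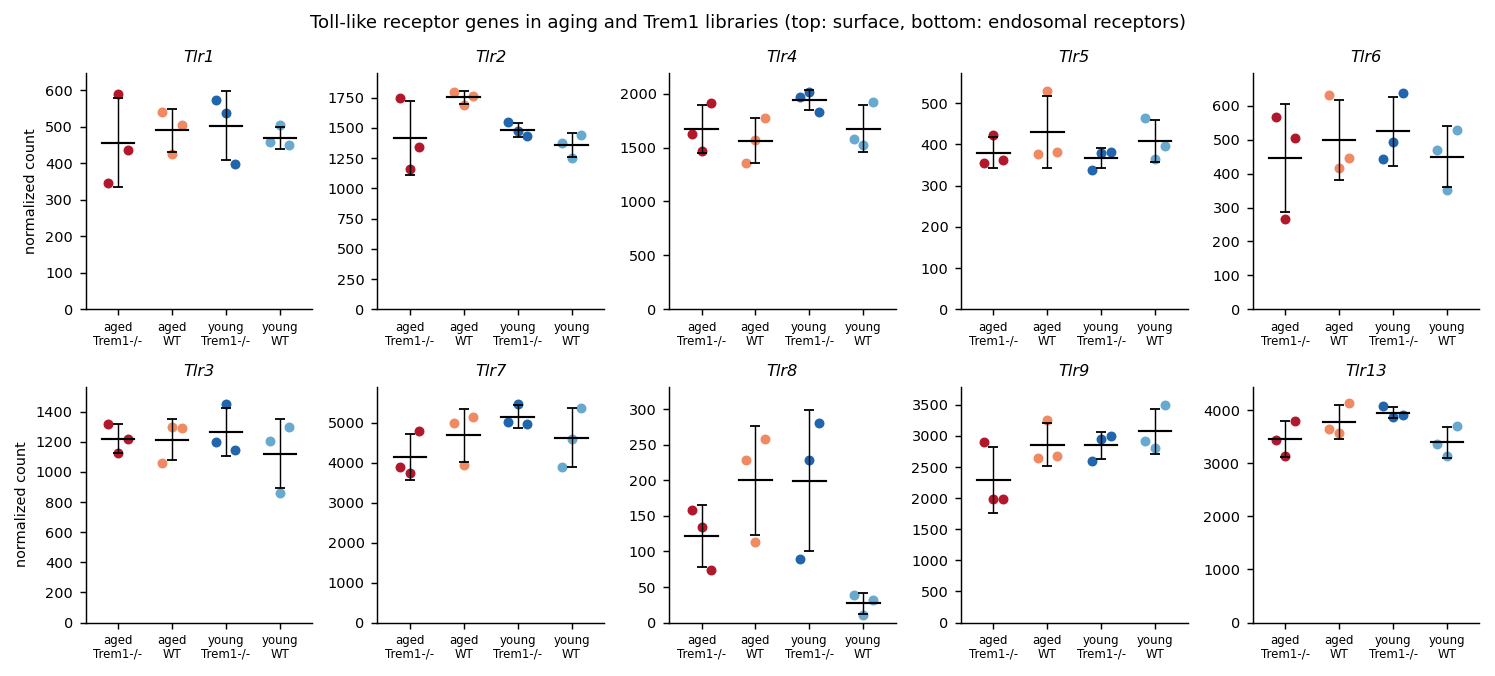
Normalized counts of each receptor gene in the aging table by group; points are libraries, lines are means and bars are SD (n = 3), with surface receptors above and endosomal receptors below. Tlr8 in young WT (26.9 ± 14.2) is separate from the other groups, and the groups of most other receptors overlap.

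In 5XFAD against adult WT the receptors parted: the lipoprotein receptors Tlr1 and Tlr2 were at higher levels in every 5XFAD library, and Tlr3, Tlr4, Tlr5, Tlr7 and Tlr9 at lower levels. The groups thus did not overlap for 7 of the 10, against 17.3% of all genes tested, with 2 higher (9.32% of genes) and 5 lower (8.01%). At an unadjusted p under 0.05 limma gave the same 7 receptors, against 15.1% of genes. Only Tlr4 passed the adjusted threshold, 1 of 10 receptors against 1.98% of the 17025 genes tested.

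Tlr4 had 1623, 1266 and 1451 normalized counts in 5XFAD, against 1763, 2529.8 and 2400.3 in WT. The lowest WT library was close to the highest 5XFAD library. The difference was -0.61 ± 0.16 (adjusted p = 0.0484), a ratio of 0.65. Adjusted p was 0.0657, 0.13 and 0.0897 without 5XFAD replicates 1, 2 and 3, 0.234 and 0.138 without WT replicates 2 and 3, and 0.0553 by edgeR and 0.287 without the trend and robust steps, so the call rests on each of these libraries and on the tool. In the authors' deposited table, given as WT over 5XFAD, Tlr4 had a log2 fold change of 0.62 with an adjusted p of 0.0123.

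Tlr1 had 579, 689 and 744 normalized counts in 5XFAD, against 467, 438 and 378 in WT, a difference of 0.65 ± 0.20 (adjusted p = 0.103). Tlr2 had 1829, 1652 and 2196 in 5XFAD, against 1386, 1127 and 1547 in WT, a difference of 0.49 ± 0.16 (adjusted p = 0.131). Tlr6, which pairs with Tlr2 as Tlr1 does, had 439, 358 and 412 in 5XFAD, against 499.5, 396 and 449 in WT. Its groups overlapped (-0.15 ± 0.21), and a part of the reads of Tlr1 and Tlr6 cannot be told apart. In the authors' deposited table, WT over 5XFAD, the adjusted p was 0.0281 for Tlr1 (-0.65) and 0.0882 for Tlr2 (-0.48).

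Tlr9 had 1969, 2275 and 2022 normalized counts in 5XFAD, against 2754, 3024 and 2722 in WT, a difference of -0.44 ± 0.13 (adjusted p = 0.103). Tlr7 had 3911, 4016 and 4055 in 5XFAD, against 4412, 5621 and 5358 in WT (-0.35 ± 0.12, adjusted p = 0.169). Tlr3 had 1165, 1021 and 1079 in 5XFAD, against 1364, 1393 and 1335 in WT (-0.33 ± 0.15, adjusted p = 0.292). For these 3 nucleic acid receptors each 5XFAD library was below each WT library. In the authors' deposited table, WT over 5XFAD, Tlr9 had a log2 fold change of 0.44 with an adjusted p of 0.0487.

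Tlr5 had 267, 474 and 193 normalized counts in 5XFAD, against 541, 537 and 553 in WT. The WT libraries were nearly equal and the 5XFAD libraries were not, with replicate 2 closest to WT. The difference was -0.90 ± 0.29 (adjusted p = 0.122). With 1 library left out in turn it ran from -1.26 to -0.61, at adjusted p of 0.0237 to 0.298. The value of -1.26 and the adjusted p of 0.0237 were those without 5XFAD replicate 2. Tlr13 differed by -0.19 ± 0.13 (adjusted p = 0.53), with overlapping groups.

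Tlr8 was low and uneven in the 5XFAD table, at 63.8, 94.5 and 53.1 normalized counts in 5XFAD, against 72.6, 0 and 40 in WT. The difference of 2.27 ± 1.25 (adjusted p = 0.422) was 0.34 without WT replicate 2, the library with no Tlr8 read. In the same order of libraries, the monocyte markers summed to 1187, 2502 and 5951 in 5XFAD and to 4480.5, 415 and 1542 in WT. WT replicate 2 thus had the lowest sum of that table, but in 5XFAD the library with the highest sum had the lowest Tlr8. In 5XFAD Trem1+/- the sums were 1874, 3390.3 and 2608, at Tlr8 of 19.9, 51.1 and 22. The part of monocytes in these values was not tested.

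Beside these values, the 10 homeostatic microglial markers summed to 338062 to 379931 in 5XFAD, against 415576 to 462305 in WT, with a median log2 difference of -0.37, 2 called lower and 1 called higher. The 5 astrocyte markers summed to 2018 to 3752 in 5XFAD, against 227 to 872 in WT, and 2 were called higher. The 5 choroid plexus markers summed to 15045 to 81956 in 5XFAD, against 2324 to 6589 in WT, and 0 were called. No marker of these lists was at 0 in a whole group, and the part of these differences in the receptor values was not tested.

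**Figure D4:**
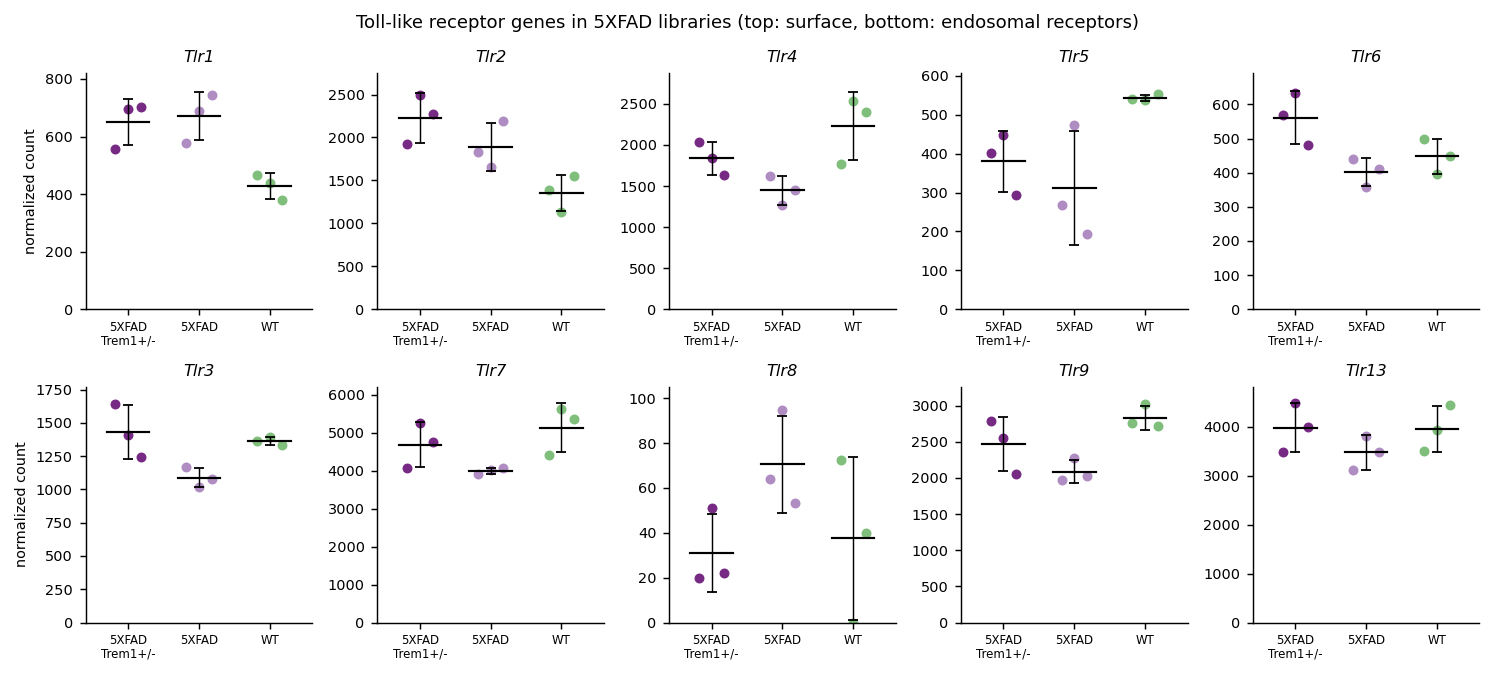
Normalized counts of each receptor gene in the 5XFAD table by group; points are libraries, lines are means and bars are SD (n = 3), with surface receptors above and endosomal receptors below. Tlr1 and Tlr2 in 5XFAD lie above WT, and Tlr3, Tlr4, Tlr5, Tlr7 and Tlr9 in 5XFAD lie below WT.

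In 5XFAD Trem1+/- against 5XFAD, no receptor and no gene of the 17025 (0%) was called by limma. At an unadjusted p under 0.05, limma, edgeR and DESeq2 each gave 3 of the 10 receptors (5.19% of all genes in limma), and neither edgeR nor DESeq2 called one after adjustment. Those 3 were Tlr3 (0.39 ± 0.15, adjusted p = 0.903), Tlr4 (0.35 ± 0.16, adjusted p = 0.931) and Tlr6 (0.47 ± 0.21, adjusted p = 0.931). Of the 10 differences, 8 were above 0, with a median of 0.24 against 0.02 over all genes.

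Tlr3 had 1641, 1406 and 1242 normalized counts in 5XFAD Trem1+/-, against 1165, 1021 and 1079 in 5XFAD. Tlr4 had 2032, 1838 and 1638, against 1623, 1266 and 1451. Tlr6 had 569, 634 and 480.4, against 439, 358 and 412. With Tlr7 (0.22 ± 0.12, adjusted p = 0.931), 4 receptors had every 5XFAD Trem1+/- library above every 5XFAD library, against 5.24% of all genes in that direction. Tlr8 was the 1 receptor with groups apart in the other direction, at 19.9, 51.1 and 22 in 5XFAD Trem1+/-, against 63.8, 94.5 and 53.1 in 5XFAD (-1.25 ± 1.25, adjusted p = 0.948), as for 6.61% of all genes. The 5XFAD libraries here are the same as in the comparison with WT. The homeostatic markers summed to 400632 to 450403 in 5XFAD Trem1+/-, against 338062 to 379931 in 5XFAD, with 10 of 10 differences above 0 and a median of 0.24.

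In 5XFAD Trem1+/- against WT, Tlr2 was called higher, 1 of 10 receptors against 2.78% of all genes. It had 1919, 2496 and 2278 normalized counts in 5XFAD Trem1+/-, against 1386, 1127 and 1547 in WT, with groups apart and a difference of 0.72 ± 0.16 (adjusted p = 0.016). Adjusted p was 0.0924 and 0.0886 without 5XFAD Trem1+/- replicates 2 and 3, 0.101 without WT replicate 2, and 0.201 without the trend and robust steps. Tlr1 had 558, 694 and 701 in 5XFAD Trem1+/-, against 467, 438 and 378 in WT (0.60 ± 0.20, adjusted p = 0.11), so that 2 receptors lay wholly above WT, against 12.9% of all genes. Tlr4 had 2032, 1838 and 1638, against 1763, 2529.8 and 2400.3 in WT, with overlapping groups (-0.27 ± 0.16, adjusted p = 0.418). Tlr5 had every 5XFAD Trem1+/- library below every WT library, against 12.6% of genes (-0.54 ± 0.29, adjusted p = 0.372), and the remaining 5 receptors other than Tlr8 differed by -0.21 to 0.32. The 5 choroid plexus markers summed to 18298 to 103581 in 5XFAD Trem1+/-, against 2324 to 6589 in WT, with 5 of 5 differences above 0 (median 3.0) and 0 called. The 5 astrocyte markers summed to 1619.8 to 2777, against 227 to 872 in WT (median 2.08, 1 called higher). The 7 border macrophage markers summed to 662 to 1129, against 255 to 1042 in WT (median 1.88, 0 called). Their part in the Tlr2 result was not tested.

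**Figure D5:**
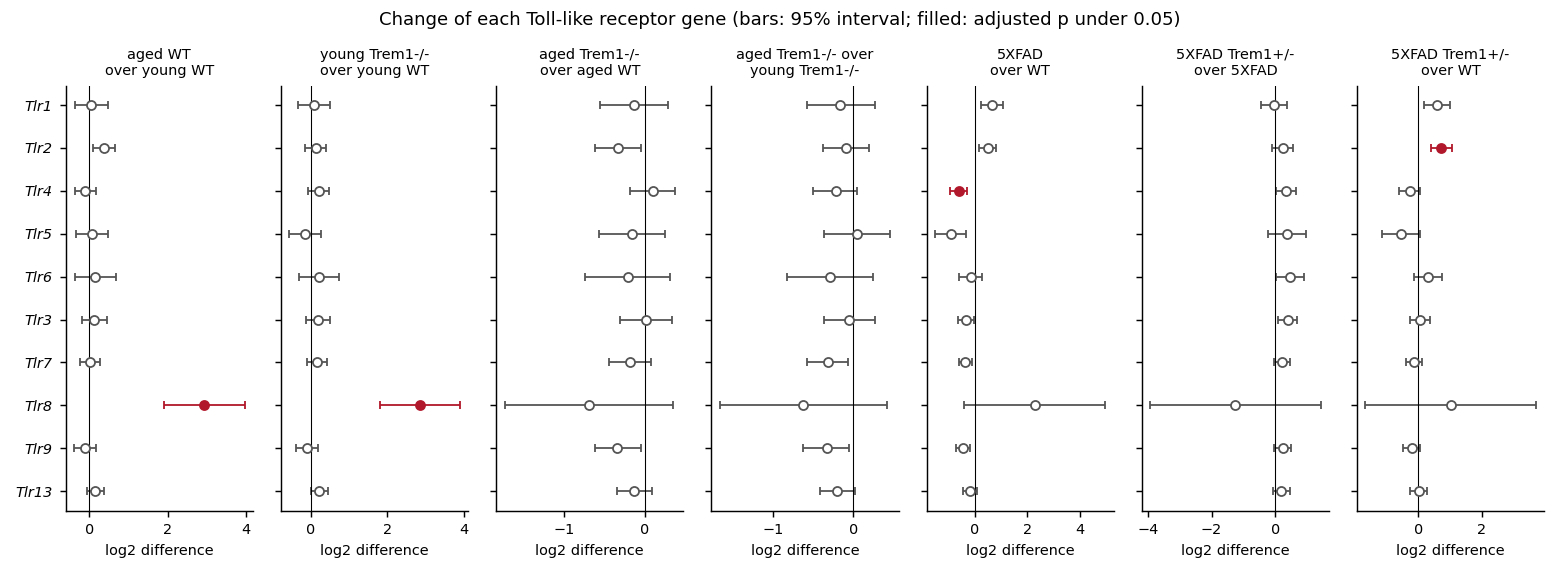
Log2 difference of each receptor gene with its 95% interval in 7 comparisons, from limma; each panel has its own horizontal scale, and filled points are called. Tlr8 is called in both comparisons with young WT shown, Tlr4 in 5XFAD over WT and Tlr2 in 5XFAD Trem1+/- over WT.

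Genes that work with the receptors were followed in 9 lists. Of 81 tested in the aging table, limma called 19 in aged WT against young WT (8.67% of all genes), 7 in young Trem1-/- against young WT (2.58%), 13 in aged Trem1-/- against young WT (6.67%) and 4 in aged against young Trem1-/- (1.71%). It called 0 in aged Trem1-/- against aged WT, where 12 had an unadjusted p under 0.05 (9.6% of all genes) and edgeR and DESeq2 also called 0. Values below are log2 differences from limma with the adjusted p.

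Among 8 co-receptors and ligand-delivery proteins, Cd44 and Lbp, the lipopolysaccharide binding protein, rose in aged WT against young WT, by 2.86 ± 0.36 (adjusted p = 0.00105) and 2.08 ± 0.42 (adjusted p = 0.00521). The median of the list was -0.04, and the call of Lbp was lost without the trend and robust steps (adjusted p = 0.0522). Cd44 also rose in young Trem1-/- against young WT, by 2.45 ± 0.36 (adjusted p = 0.00591). Cd14, which hands lipopolysaccharide to Tlr4, had 2219, 1868 and 1839.6 normalized counts in aged Trem1-/-, 3197, 2233 and 2505 in aged WT, 2951, 3027 and 2705 in young Trem1-/-, and 2885, 2909 and 3027 in young WT. Aged Trem1-/- was below both young groups. Cd14 fell in aged Trem1-/- against young WT (-0.58 ± 0.12, adjusted p = 0.00464) and against young Trem1-/- (-0.55 ± 0.12, adjusted p = 0.0187). The second call was lost without any 1 of 4 libraries, aged Trem1-/- replicates 2 and 3 and young Trem1-/- replicates 2 and 3, at adjusted p of 0.0966, 0.0723, 0.101 and 0.0516. Without the trend and robust steps both calls of Cd14 were lost (adjusted p of 0.0877 against young WT and 0.189 against young Trem1-/-).

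Of 9 proteins for folding and trafficking, Unc93b1, which carries the nucleic acid receptors to endosomes, fell in aged Trem1-/- against young WT (-0.41 ± 0.10, adjusted p = 0.00878). It had 15221, 14139 and 15031 normalized counts in aged Trem1-/-, against 19825, 19950.0 and 19288 in young WT. Lgmn, an endosomal protease that cleaves these receptors, fell in aged Trem1-/- against young WT (-0.50 ± 0.08, adjusted p = 4.3e-04) and against young Trem1-/- (-0.49 ± 0.08, adjusted p = 0.003). Lgmn also fell in aged WT against young WT (-0.29 ± 0.08, adjusted p = 0.0313), where Hsp90b1, a chaperone of the receptors, rose (0.50 ± 0.13, adjusted p = 0.0203). In aged WT, Lgmn lost its call without aged WT replicates 2 or 3 or young WT replicates 1 or 3 (adjusted p of 0.0802, 0.157, 0.124 and 0.101), and Hsp90b1 without aged WT replicates 1 or 3 or young WT replicate 2 (0.125, 0.0961 and 0.0986). Without the trend and robust steps the calls of Unc93b1 (adjusted p = 0.155) and of Lgmn in aged Trem1-/- against young WT (0.0752), aged against young Trem1-/- (0.17) and aged WT against young WT (0.248) were lost, as was that of Hsp90b1 (0.154). In both contrasts of aged Trem1-/- with young libraries the list had 2 genes called lower and 0 called higher, with medians of -0.18 and -0.30.

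Among 12 inhibitors, Irak3, a kinase-like protein that dampens MyD88 signalling, had 475, 324 and 301 normalized counts in aged Trem1-/-, 363, 319 and 429 in aged WT, 271, 351 and 375 in young Trem1-/-, and 101, 109 and 145 in young WT. As for Tlr8, the young WT libraries were below all others. Irak3 rose in aged WT (1.64 ± 0.25, adjusted p = 1.1e-04), in young Trem1-/- (1.49 ± 0.25, adjusted p = 0.00107) and in aged Trem1-/- (1.61 ± 0.25, adjusted p = 2.1e-04), each against young WT. The list as a whole had 1 of 12 called higher and 1 lower in aged WT, with a median of 0.18.

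Of 6 adaptors tested, limma, edgeR and DESeq2 called 0 in aged WT against young WT, with 1 at an unadjusted p under 0.05, Myd88 (0.43 ± 0.18, adjusted p = 0.151). Of 10 transcription factors, Irf7, which drives type I interferon genes, rose in aged WT against young WT (1.18 ± 0.27, adjusted p = 0.00622) and 1 was called lower. The call of Irf7 was lost without the trend and robust steps (adjusted p = 0.0593). Of 11 tested cytokines and chemokines that the receptors induce, 5 were called higher in aged WT against young WT by limma and 4 by edgeR, beside 8.67% of all genes called in limma, with a median of 1.46. Il1b, which encodes interleukin-1 beta, was higher in aged WT by 2.81 ± 0.45 (adjusted p = 0.00141), and in young Trem1-/- by 2.72 ± 0.45 (adjusted p = 0.00449), each against young WT. Il1b kept the call in aged WT without each library and lost the one in young Trem1-/- without the trend and robust steps (adjusted p = 0.0526). Of the other calls of the list in aged WT, those of Ccl3, Ccl4 and Tnf rested on single libraries. The remaining call was outside the rule for naming genes and is not described. Ccl3 (1.33 ± 0.35, adjusted p = 0.0163) was lost without aged WT replicates 1 or 3 or young WT replicate 3, at up to 0.0926. Ccl4 (1.48 ± 0.43, adjusted p = 0.0329) was lost without any 1 of the 6 libraries but young WT replicate 2, at up to 0.163. Tnf (1.51 ± 0.45, adjusted p = 0.039) was lost without any 1 of the 6 but aged WT replicate 2, at up to 0.199. Of 6 tested endogenous ligands, 4 were called higher in aged WT against young WT, among them S100a8 (2.83 ± 0.36, adjusted p = 0.00182). S100a8 and S100a9 are also on the neutrophil marker list and Vcan on the monocyte list, so their calls are not separate from the marker results. S100a8 and S100a9 kept their calls without each library. Hspd1 (0.76 ± 0.19, adjusted p = 0.0116) lost its call without aged WT replicates 1 or 3 or young WT replicate 2 (adjusted p of 0.0534, 0.102 and 0.0625), and Vcan (4.51 ± 0.84, adjusted p = 0.0132) without aged WT replicates 1 or 3 (0.0563 and 0.0583) or with only the groups compared (0.0691). The marker sums given with Tlr8 apply to these lists too, and their part in them was not tested.

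Of these lists, 77 genes were tested with the 5XFAD libraries, and 4 were called in 5XFAD against WT (1.98% of all genes): Ctsb, Ccl3 and Ccl4 rose and Tab2 fell. Ctsb, a cathepsin of endosomes and lysosomes, had 35213, 38385 and 35209.7 normalized counts in 5XFAD, against 19472, 20032 and 24251 in WT (0.78 ± 0.14, adjusted p = 0.0117). Ccl3, a chemokine, had 482, 1125 and 436 in 5XFAD, against 40.7, 123 and 144 in WT (2.77 ± 0.50, adjusted p = 0.0221). Ccl4 rose by 1.97 ± 0.44 (adjusted p = 0.0272), and Tab2, an adaptor of the kinase TAK1, fell (-0.51 ± 0.11, adjusted p = 0.02). Every one of the 4 lost its call without WT replicate 2, at adjusted p of 0.0621 for Ctsb, 0.0705 for Ccl3, 0.0691 for Ccl4 and 0.0871 for Tab2, and so did other single libraries: 5XFAD replicate 2 for Ctsb (0.0587), 5XFAD replicate 1 for Ccl3 (0.0589), 5XFAD replicates 1 and 2 and WT replicate 1 for Ccl4 (0.0794, 0.0972 and 0.0842) and for Tab2 (0.052, 0.0502 and 0.0594).

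In 5XFAD Trem1+/- against WT, 4 of the 77 were called, all higher, against 2.78% of all genes. Among them were Ctsb (0.93 ± 0.14, adjusted p = 0.00267), Ccl3 (3.15 ± 0.50, adjusted p = 0.00957) and Ccl4 (2.07 ± 0.44, adjusted p = 0.0157). Ctsb and Ccl3 kept the call without each library, but Ctsb lost it with no filter on low values (adjusted p = 0.0705), and both lost it without the trend and robust steps (0.15 for Ctsb and 0.103 for Ccl3). Ccl4 lost its call with 1 library left out in 4 of 6 cases, at adjusted p of up to 0.0973. Ctss, the cathepsin S of endosomes, rose by 0.51 ± 0.10 (adjusted p = 0.00878), with adjusted p of 0.06 without 5XFAD Trem1+/- replicate 3, 0.0668 without WT replicate 2, 0.166 with no filter and 0.261 without the trend and robust steps. In 5XFAD Trem1+/- against 5XFAD, limma, edgeR and DESeq2 called 0 of the 77, with 6 at an unadjusted p under 0.05 in limma (5.19% of all genes). The mouse receptor Tlr12 had 955, 678 and 641 normalized counts in aged Trem1-/-, 776, 835 and 913 in aged WT, 567, 628 and 607 in young Trem1-/-, and 596, 577 and 775 in young WT. Each aged group lay above the young group of its own genotype, by narrow margins. The closest libraries had 776 and 775 in WT, and 641 and 628 in Trem1-/-. Groups were apart in that direction for 15.1% of all genes in WT, and that share is not given here for Trem1-/-. Tlr12 was not called in any comparison, at 0.38 ± 0.17 in aged WT against young WT (limma adjusted p = 0.186) and 0.31 ± 0.17 in aged against young Trem1-/- (adjusted p = 0.398).

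Across all libraries, likeness of a gene to a receptor was the smaller of 2 Pearson r values on log2(normalized count + 1), over the 12 aging libraries and over the 9 libraries of the 5XFAD table, among 15657 genes tested in both. These are descriptions over libraries that share depth and groups. Each value is the highest of many genes over few libraries, and it was not tested or set against a background. Tlr8 was most like Crip1 (0.93), Dram1 (0.91) and Ifi203 (0.91), with the WT library without a Tlr8 read among the points. By Spearman rho the 3 most like Tlr8 were Ifi203 (0.82), Gm14548 (0.81) and Mlkl (0.80). The lists by Pearson and Spearman shared 2 of 3 genes for Tlr6 and Tlr13 and at most 1 for each other receptor. Tlr9 was most like Cdc42ep1 (0.86), Zmiz1 (0.82) and Abcc3 (0.79), and Tlr2 most like Etf1 (0.85), Eno1 (0.83) and Msh6 (0.82). Tlr4 was most like Zfp729a (0.82), Tnks2 (0.80) and Fam117b (0.79), and Tlr3 most like Calcrl (0.82). For Tlr1, Tlr5, Tlr6, Tlr7 and Tlr13 the highest likeness was lower, at 0.73 for Ppie, 0.71 for Rictor, 0.79 for Phf2os1, 0.76 for Picalm and 0.76 for Eif4ebp2. No receptor was among the 3 most alike genes of another receptor by Pearson r, and by Spearman rho Tlr7 was among the 3 for Tlr13 (0.75).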

How the data were processed

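Per the submitters' processing notes, the authors used fastp, HISAT2 2.0.5, featureCounts 1.5.0-p3, DESeq2 1.20.0 and the build GRCm38; per the labels, libraries were made with a NEBNext Ultra RNA kit. The annotation release and strand setting are not given in the sources used here. Each deposited per-library column is a signal, reads over a size factor, and divided by what 1 read is worth it came out whole to within 0.05 for at least 99.9956% of nonzero values. The deposited tables also hold the authors' log2 fold changes and errors, the Wald score, and raw and adjusted p-value columns, for young WT over aged Trem1-/- and for adult WT over 5XFAD.

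The 2 tables were normalized separately and never tested against each other. Genes with a mean of at least 10 were tested (aging 16086, 5XFAD 17025) with limma 3.58.1 in R 4.3.3 (trend, robust) on log2(normalized count + 1), all groups of a table in 1 fit. On the recovered reads, edgeR 4.0.16 and DESeq2 1.42.0 were alternatives, and called 1246 and 1768 genes in aged WT against young WT (limma 1394), and 213 and 778 in 5XFAD against WT (limma 337). The fit was also run on simulated counts, with changes only in genes of higher level and the same spread setting for every gene. The outcome is not given here and is not used as support. Named beside the receptors were up to 4 called genes of each list with the smallest p, or up to 2 where none was called; of these a part is given, chosen after their values were seen. The receptors, the lists and the alternatives were chosen with earlier results of these data known. Of 54532 symbols, 53825 matched GENCODE M21. Floors of 3 reads cover counting error only, since reads are not independent molecules. Replicate numbers were not treated as pairing samples, and the reported fit had no replicate block.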

Additional observations from a re-analysis of the deposited data

Results flagged for a closer look

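The age difference differed between the genotypes as labelled for Tlr8, by a test of the difference itself (Trem1-/- minus WT), at -3.56 ± 0.71 on the log2 scale (limma adjusted p = 0.00785). In the same test 5 of the 81 pathway genes tested were called, against 2.54% of all genes. These were Cd44 (-3.03 ± 0.50, adjusted p = 0.0159), Hsp90b1 (-0.82 ± 0.18, adjusted p = 0.0212), Irak3 (-1.52 ± 0.35, adjusted p = 0.0189), Il1b (-3.09 ± 0.63, adjusted p = 0.0213) and Vcan (-6.29 ± 1.18, adjusted p = 0.034). Tlr8 kept its call with any 1 of the 12 libraries left out, at -4.05 to -3.03. Without the trend and robust steps all 6 calls were lost, at adjusted p of 0.129 for Tlr8, 0.0652 for Cd44, 0.215 for Hsp90b1, 0.103 for Irak3, 0.124 for Il1b and 0.0659 for Vcan. With no filter on low values Hsp90b1 (0.225) and Vcan (0.056) lost theirs, and with a replicate block Il1b (0.0605) and Vcan (0.0721). Cd44 lost its call without aged Trem1-/- replicate 2 (adjusted p = 0.0536) or aged WT replicate 3 (0.0504). Hsp90b1 lost it without aged Trem1-/- replicate 2 (0.0711), aged WT replicate 1 (0.111) or young Trem1-/- replicate 3 (0.0639). Irak3 lost it without aged Trem1-/- replicates 2 and 3 (0.0506 and 0.0512), aged WT replicate 3 (0.0741) or young Trem1-/- replicates 2 and 3 (0.0548 and 0.0731), each left out alone. Il1b lost it without aged Trem1-/- replicates 2 and 3 (0.0534 and 0.0655) or young WT replicates 2 and 3 (0.0597 and 0.0685), each left out alone. Vcan lost it in 9 of 12 cases, at up to 0.0993, and kept it without aged WT replicate 2, young Trem1-/- replicate 1 or young WT replicate 1. Young WT was the lowest of the 4 groups for all 6 genes, and for the monocyte and neutrophil marker sums. Groups of 3 libraries were too small for a test of single outlying samples.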

How the results depend on the processing

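With a replicate block for the library numbers, which do not pair the samples (median residual correlations of same-numbered libraries 0.0119 in the aging table and 0.0116 in the other), the counts of called receptors were the same (1 in 6 comparisons and 0 in 3), with Tlr8 in aged WT against young WT at 2.93 (adjusted p = 7.7e-04), Tlr4 in 5XFAD against WT at -0.61 (0.0321) and Tlr2 in 5XFAD Trem1+/- against WT at 0.72 (0.00471). TMM and upper-quartile scaling also kept each count. The block ended 4 pathway calls, Vcan in young Trem1-/- against young WT (adjusted p = 0.0585), Irf7 in aged Trem1-/- against young WT (0.0553), and Il1b and Vcan (0.0605 and 0.0721) in the age difference between genotypes. Without trend and robust steps the count was 0 for young Trem1-/- and aged Trem1-/- against young WT, the age difference between genotypes, and 5XFAD and 5XFAD Trem1+/- against WT. For 5XFAD against WT it was 0 with a pseudocount of 0.5, a mean of at least 50, only the groups compared, or edgeR, and 3 (Tlr1, Tlr4, Tlr9) with DESeq2. For aged Trem1-/- against young WT it was 2 (Tlr8, Tlr9) with a pseudocount of 5 or no filter. At an adjusted p under 0.1 it was 2 there and for aged WT against young WT. With 1 library left out in turn, the counts ran from 1 to 2 for aged Trem1-/- against young WT, and from 0 to 1 for 5XFAD and for 5XFAD Trem1+/- against WT. The cause of these changes was not tested. Of 1577 receptor values under alternatives, 1554 kept their side of the threshold. Of 1464 values called in neither setting, 58 changed sign. Of 55 pathway calls named by the rule, 22 held without each library. Reads of Tlr8 per library ran from 10 to 321 (aging) and from 0 to 70 (5XFAD).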
